A study of Homo sapiens with 6 samples.

Results

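Dense peaks of RNA polymerase I (Pol I) were listed in DMSO-treated LNCaP cells at 5 loci, labelled FOLH1, STEAP2, NFIX, NAALADL2 and PRRC2B. LNCaP is an established human prostate cancer line that responds to androgens. The loci are hg19 windows chosen from the DMSO Pol I peaks themselves, each taken with 20 kb on both sides, so the number and closeness of those peaks is a description and no result. Together the windows spanned 1508 kb and held 104 of the 42547 peaks of the DMSO Pol I list. From the other lists they held 204 of 28798 peaks (Pol II, DMSO), 9 of 1932 (Pol I, BMH-21) and 50 of 11540 (Pol II, BMH-21).

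The libraries came from cells given the solvent DMSO or 1 µM BMH-21 for 6 h. Chromatin was immunoprecipitated with an antibody against Pol I (C-1) or with one against RNA polymerase II (Pol II) carrying phosphate on serine 5 of its C-terminal repeats (4H8). Both treatments used the same line, and each antibody and treatment had 1 library, so the spread between replicates could not be measured and no test was possible. An input library per treatment was not analysed here. The depth of the libraries is unknown, as the files hold no reads.

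Pol I is the enzyme that makes the ribosomal RNA precursor in the nucleolus, and its known target is the ribosomal DNA. Protein-coding genes such as these 5 are read by Pol II, whose serine 5 phosphorylation is typical of the start of genes and early elongation. BMH-21 intercalates into GC-rich DNA and inhibits Pol I. FOLH1 encodes prostate-specific membrane antigen, a cell-surface carboxypeptidase, and NAALADL2 a relative of it. STEAP2 encodes a membrane metalloreductase abundant in prostate, NFIX a transcription factor of the nuclear factor I family, and PRRC2B a proline-rich protein that binds RNA.

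The labels were checked against RefSeq on GRCh38 by length only, since no annotation of hg19 was used. Without its flanks the FOLH1 window is 63 kb long beside a gene of 63.5 kb, and the NFIX window is 104 kb beside 103 kb. PRRC2B has 134 kb beside 127 kb. The STEAP2 window, at 60 kb, is longer than the gene of 31.7 kb, and the next protein-coding gene in RefSeq order is CFAP69. The NAALADL2 window of 947 kb is shorter than the gene, whose RefSeq extent is 1370 kb. FOLH1 has a close copy, FOLH1B, on the same chromosome, and how reads that match both were placed is not given in the sources used here.

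What the lists leave out bears on every value below. Each peak name ends in a running number that follows position, and numbers are missing from all 4 lists, with DMSO 23.3% (Pol I) and 48.1% (Pol II), and with BMH-21 87.7% (Pol I) and 77.0% (Pol II). The 2 lists of an antibody also share 0 positions. A region with no listed peak is therefore not shown to be free of the polymerase, and the skipped numbers are given with each locus.

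The sequences that can be set beside the loci are the promoters of their genes in RefSeq (GRCh38.p14), which held 4 of the 5 genes. The 250 bases before a start are shown for both listed starts of PRRC2B, the locus with the highest-scored DMSO Pol II peaks. They are also shown for the first start of STEAP2, which had no listed Pol II peak between its flanks, and for NAALADL2. Whether any peak lies on these starts was not tested. Capitals mark CG dinucleotides, and all 4 are on the plus strand.
PRRC2B, first start (GRCh38.p14 chr9:131373401-131373650): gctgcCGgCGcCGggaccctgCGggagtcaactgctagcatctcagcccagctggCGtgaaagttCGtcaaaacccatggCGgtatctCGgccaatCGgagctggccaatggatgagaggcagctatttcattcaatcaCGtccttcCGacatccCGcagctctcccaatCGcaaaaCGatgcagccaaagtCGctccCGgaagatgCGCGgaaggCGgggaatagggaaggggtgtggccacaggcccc
PRRC2B, second start (GRCh38.p14 chr9:131393836-131394085): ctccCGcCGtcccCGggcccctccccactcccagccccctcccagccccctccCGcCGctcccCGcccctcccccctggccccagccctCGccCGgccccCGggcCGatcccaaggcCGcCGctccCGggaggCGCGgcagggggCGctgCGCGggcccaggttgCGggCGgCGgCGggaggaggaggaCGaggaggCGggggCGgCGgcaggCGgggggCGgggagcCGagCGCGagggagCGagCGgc
STEAP2, first start (GRCh38.p14 chr7:90211490-90211739): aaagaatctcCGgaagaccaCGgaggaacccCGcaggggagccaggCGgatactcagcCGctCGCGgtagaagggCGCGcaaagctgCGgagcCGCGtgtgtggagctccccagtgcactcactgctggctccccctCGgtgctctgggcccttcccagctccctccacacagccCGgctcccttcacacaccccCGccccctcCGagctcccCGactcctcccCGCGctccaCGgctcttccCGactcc
NAALADL2 (GRCh38.p14 chr3:174859084-174859333): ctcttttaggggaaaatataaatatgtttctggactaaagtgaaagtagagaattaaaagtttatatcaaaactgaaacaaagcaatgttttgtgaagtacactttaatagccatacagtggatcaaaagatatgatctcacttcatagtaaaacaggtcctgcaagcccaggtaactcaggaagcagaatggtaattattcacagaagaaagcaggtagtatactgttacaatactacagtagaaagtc

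These promoters differed widely in CG content. The second PRRC2B start had 33 CG dinucleotides, more than 91.9% of the 35116 promoter windows of that length in the table, and 85.2% G or C. The first had 19, against a median of 11 over all windows. Listed starts of 1 gene also differed: the first STEAP2 start had 21 and the second 2, and the 5 NFIX starts had 37, 4, 15, 15 and 22. NAALADL2 had 0, with 33.6% G or C, and it held the letters TATAAA (searched on both strands), which 10.7% of all windows did. The second STEAP2 start, with 32.8% G or C, held TATAAA too. The first STEAP2 start and the listed starts of PRRC2B and NFIX did not hold these letters.

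**Figure D1:**
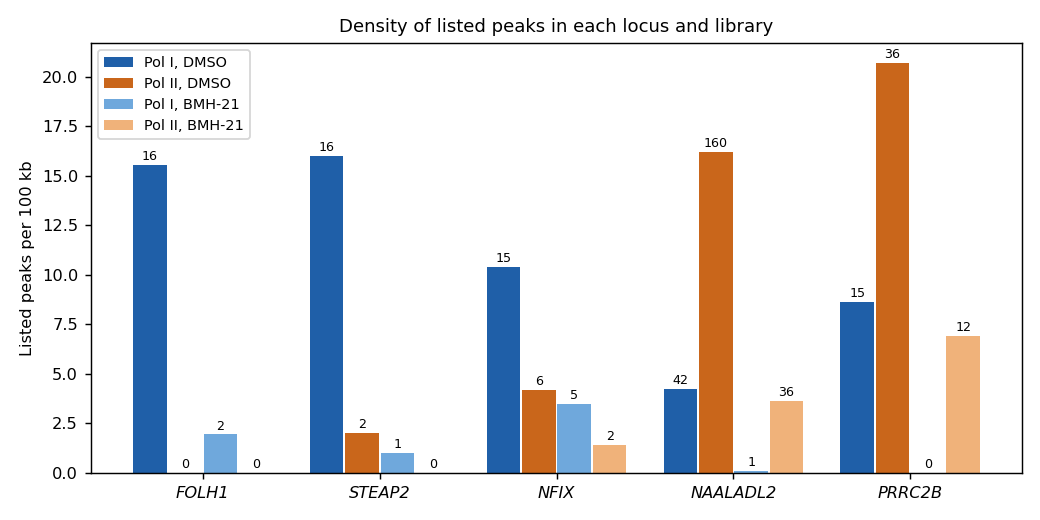
Listed peaks per 100 kb (vertical axis) in the 5 loci with their flanks, by library, with the number of peaks above each bar. The DMSO Pol I bars run from 4.26 in NAALADL2 to 16.0 in STEAP2, and the DMSO Pol II bars from 0 in FOLH1 to 20.7 in PRRC2B.

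DMSO Pol I peaks were densest in STEAP2, at 16.0 per 100 kb (16 peaks), and FOLH1, at 15.5 (16 peaks). They stood at 10.4 in NFIX (15 peaks), 8.62 in PRRC2B (15 peaks) and 4.26 in NAALADL2 (42 peaks). From its first to its last peak on each chromosome the same list had 1.5 per 100 kb on chromosome 7, 1.53 on 11, 2.04 on 19, 1.29 on 9 and 1.52 on 3. All chromosome densities given here are over that span of the list concerned. NAALADL2, at 2.81 times its chromosome, is thus the least dense of the loci, and its 42 peaks come with its length.

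The spacing of the peaks, from centre to centre of consecutive listed peaks, had a median of 7.16 kb over the 99 spacings of the loci, against 32.6 kb over the 42523 spacings of the whole list. FOLH1 had a median spacing of 1.76 kb, the shortest of the 5 over all listed peaks, and 8 of its 15 spacings were under 2 kb. The medians were 5.18 kb in NFIX, 5.60 kb in PRRC2B, 6.38 kb in STEAP2 and 11.8 kb in NAALADL2. Spacing was uneven in all 5. The coefficient of variation was 0.750 in STEAP2, 0.938 in FOLH1, 1.07 in NAALADL2, 1.24 in PRRC2B and 1.27 in NFIX. Over the whole list it was 3.49, but that list includes spacings of up to 30430 kb, so the values are not directly comparable.

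Skipped numbers touch these spacings unequally. Between the first and last listed Pol I peak of a window 0 numbers were skipped in PRRC2B, 5 in STEAP2, 6 in FOLH1, 6 in NFIX and 20 in NAALADL2. Over spacings that skipped no number the medians were 1.73 kb in FOLH1 (13 spacings), 1.67 kb in NFIX (9), 3.25 kb in STEAP2 (10), 5.60 kb in PRRC2B (all 14) and 10.4 kb in NAALADL2 (27). The value for NFIX was over 1.5 times shorter than with all spacings, and so was that for STEAP2. The order of FOLH1 and NFIX turned, so neither can be called the locus with the closest peaks. The coefficient of variation over spacings that skipped no number was 0.695 in FOLH1 and 0.927 in STEAP2, which turned their order as well.

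**Figure D2:**
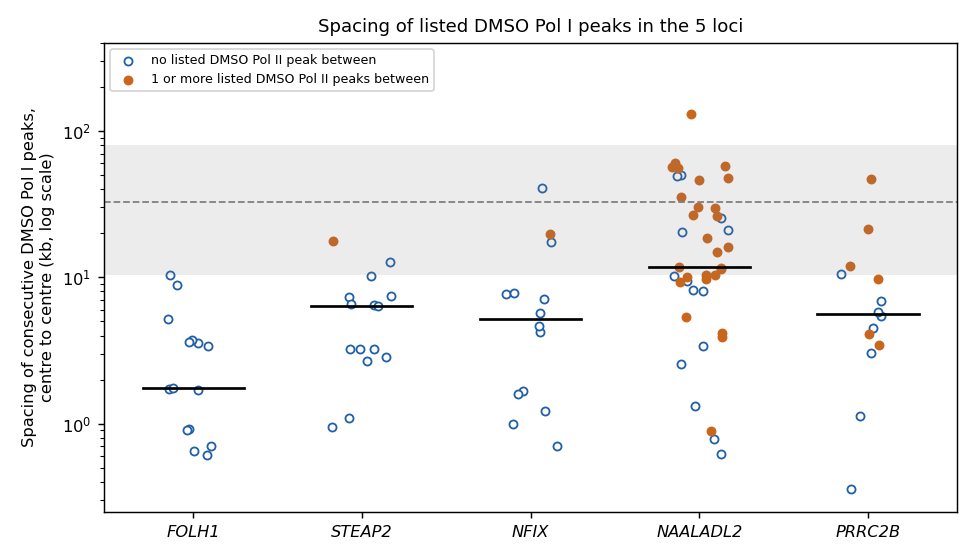
Distance between the centres of consecutive listed DMSO Pol I peaks (vertical, log scale, kb) in each locus. Each point is 1 spacing, filled where the centre of a listed DMSO Pol II peak lies between the 2 peaks, black bars are medians, and the dashed line and grey band give the median (32.6 kb) and quartiles (10.3 and 79.6 kb) of the whole list. Filled points are absent in FOLH1 and make up 27 of 41 in NAALADL2.

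At FOLH1, on chromosome 11, all 16 DMSO Pol I peaks lay inside the window proper, none in the flanks, over 49.0 kb. The highest score of the locus, 663.44, belonged to its widest peak, the 2210 bp at chr11:49228225-49230434, which ended 566 bp before the upper end of the window. FOLH1 is transcribed toward lower coordinates, so the upper end is the side on which the gene begins. This peak ranked 110 of the 42547 peaks of the list and 3 of the 2051 on chromosome 11. The next score of the locus was 249.42, at chr11:49199434-49200503, and the remaining 14 peaks scored between 50.93 and 157.04. The median score of the 16 was 81.49, below the 98.30 of the whole list, and 6 of the 16 were at or above that value.

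The closest FOLH1 peaks, at chr11:49207896-49208281 and chr11:49208437-49208955, were 0.608 kb apart, and another neighbouring pair was separated by only 3 bp. The longest spacing was 10.4 kb, from 49208955 to 49218841, and 3 of the 6 skipped numbers fell in it. No Pol II peak was listed in the window in either treatment. The nearest listed DMSO Pol II peaks lay 1040 kb before and 139 kb after it, and only 5 numbers were skipped over the 1282 kb between them. Up to 5 unlisted DMSO Pol II peaks could therefore lie there, and how many of them lay in the window is unknown. On chromosome 11 the DMSO Pol II list had 1.04 peaks per 100 kb, and the flanked window is 103 kb long. Nothing particular to FOLH1 is therefore read from its lack of listed Pol II peaks. For BMH-21 Pol II the corresponding stretch was 2457 kb long and skipped 12 numbers.

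**Figure D3:**
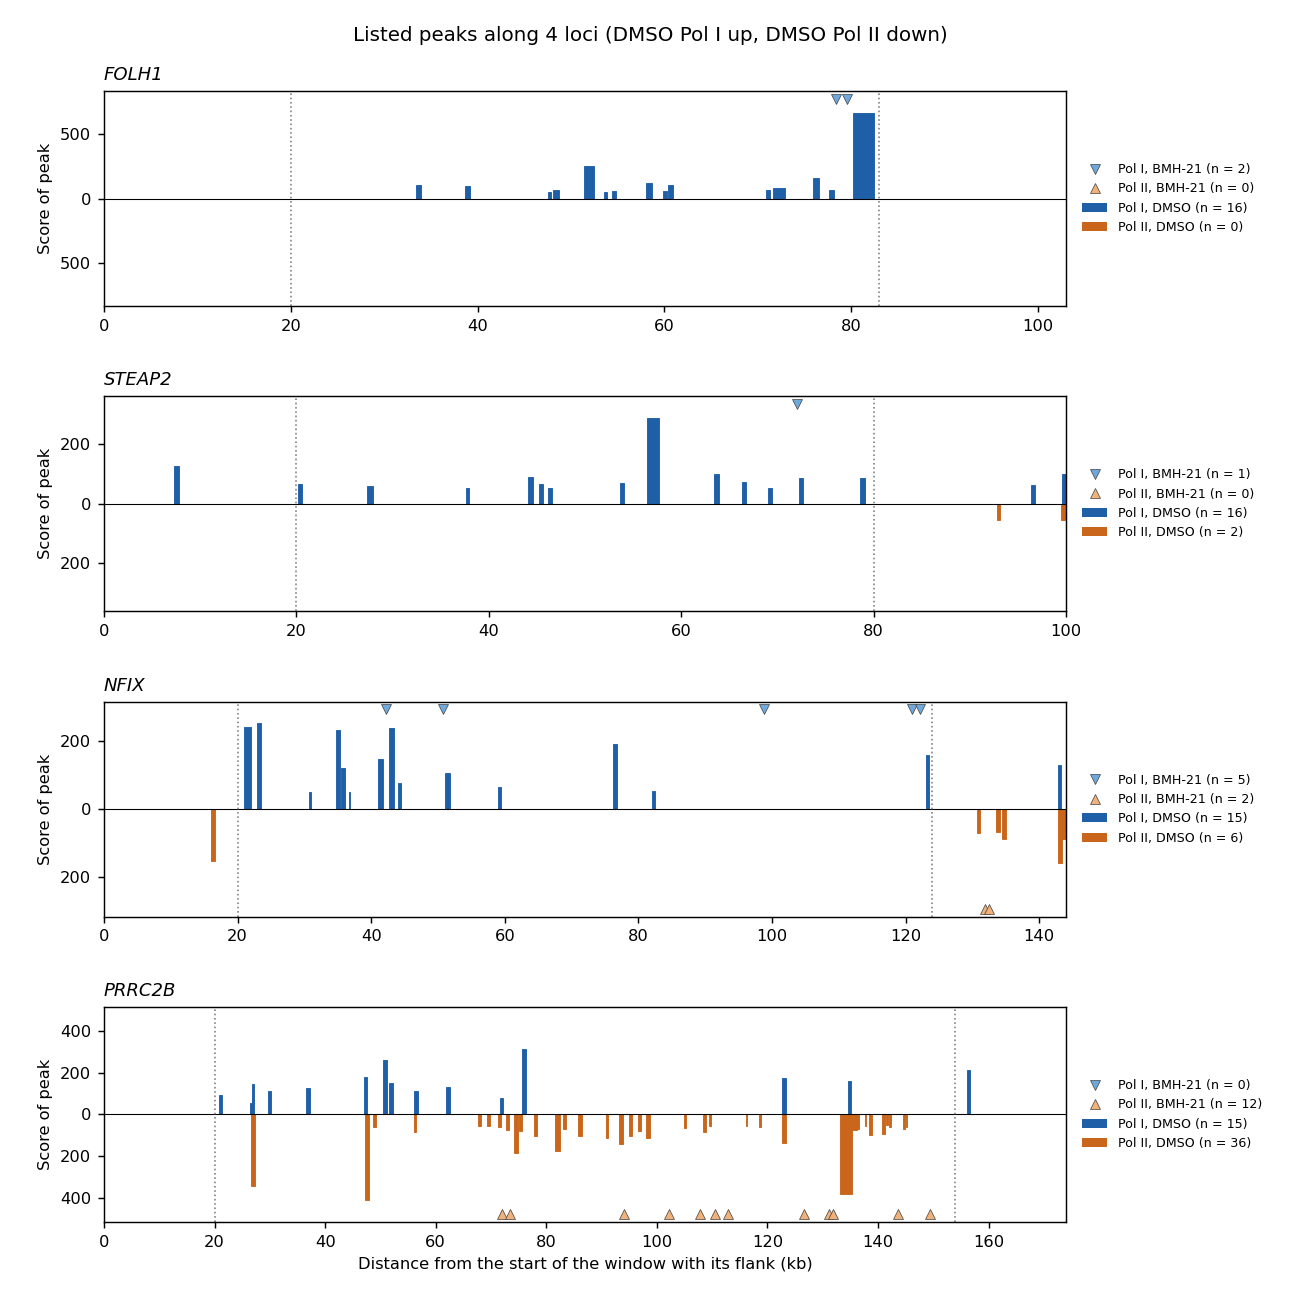
Listed peaks along FOLH1, STEAP2, NFIX and PRRC2B, by distance from the start of the flanked window (kb). Bars show DMSO Pol I peaks upward and DMSO Pol II peaks downward at their width and deposited score (vertical, 1 scale per panel, not comparable between antibodies), triangles mark BMH-21 peaks without their score, and dotted lines bound the window without flanks. FOLH1 has no downward bar, whereas PRRC2B has 36.

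STEAP2, on chromosome 7, had 16 DMSO Pol I peaks, 13 in the window proper and 3 in the flanks. The highest score, 289.82, was again that of the widest peak, 1272 bp at chr7:89858441-89859712. The others scored from 52.44 to 128.06, and the median of the 16 was 72.12. Of the 15 spacings 2 were under 2 kb and 12 were under 10 kb. The closest peaks, 0.944 kb apart, lay within chr7:89847208-89848596, and the longest spacing of 17.7 kb followed the peak ending at 89881111.

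The DMSO Pol II peaks of STEAP2 were both in the upper flank and weakly scored. The peak at chr7:89894808-89895191 scored 52.98, and the one at chr7:89901431-89901897 scored 54.84 and overlapped the Pol I peak at chr7:89901556-89902088 by 342 bp. Between the flanks no Pol II peak was listed in either treatment. Before the first of these peaks 14 DMSO Pol II numbers were skipped, over 1419 kb. No BMH-21 Pol II peak was listed in the window, and 46 numbers were skipped over the 2876 kb around it.

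In NFIX, on chromosome 19, the 15 DMSO Pol I peaks crowded toward the lower coordinates, where this gene begins. Cut into 5 equal parts of 28.8 kb, the window held 2, 8, 3, 0 and 2 of them in order. Unlike in FOLH1 and STEAP2 no single peak led: the highest score was 254.02 at chr19:13108871-13109427, followed by 241.66 at chr19:13106983-13107967, the widest at 985 bp, then 240.69 and 233.81. The median score, 129.31, was above that of the whole list. Peaks as close as 0.709 kb (within chr19:13120754-13122030) stood beside a longest spacing of 41.0 kb, between 13168444 and 13209003.

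All 6 DMSO Pol II peaks of NFIX were in the flanks, 1 before the window proper and 5 after it, on the side where LYL1, TRMT1 and NACC1 are the next protein-coding genes in RefSeq order. Their scores were 154.12 at chr19:13102048-13102579, 70.78 at chr19:13216694-13217067, 67.81 at chr19:13219574-13220070, 88.45 at chr19:13220487-13221001, 158.77 at chr19:13228778-13229339 and 87.27 at chr19:13229379-13229899. The peak scored 158.77 covered the whole Pol I peak at chr19:13228827-13229252 (score 129.31), the only Pol I peak of NFIX overlapped by Pol II. Between the first and second of them lay 114 kb without a listed DMSO Pol II peak, in which 13 numbers were skipped.

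The BMH-21 Pol II numbering skipped a long run of numbers around NFIX. The list gave 2 peaks, both in the upper flank (59.57 at chr19:13217792-13218058 and 50.91 at chr19:13218304-13218543). Before the first of them 114 numbers were skipped over 179 kb, or 63.8 per 100 kb against 1.29 over the whole list. That stretch began 47.0 kb before the flanked window and took in the whole window proper. Only 4 of 11516 stretches between consecutive peaks of that list skipped as many numbers, and the median was 1. The positions of these unlisted peaks are unknown, so how many of them lay in NFIX was not measurable, and the absence of listed Pol II peaks from the window proper does not show that Pol II was absent.

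PRRC2B, on chromosome 9, was the locus with the largest share of its DMSO Pol I peaks overlapped by Pol II, 7 of 15. NAALADL2 had as many overlapped peaks, 7 of 42. Its 15 DMSO Pol I peaks had the highest median score of the loci, 147.92, with 313.25 at chr9:134297670-134298416, 263.37 at chr9:134272467-134273110 and 212.70 at chr9:134378019-134378652 at the top. The widest was the 794 bp at chr9:134283807-134284600. The closest peaks, 10 bp apart within chr9:134248390-134249101, had their centres 0.361 kb apart, and the longest spacing was 46.9 kb, from 134298416 to 134344692. In the stretch around the window neither Pol I list skipped a number, so the Pol I spacing of PRRC2B rests on all peaks that were numbered.

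Pol II peaks of PRRC2B were more numerous than Pol I peaks, 36 against 15, and lay farther along the window. In order along 5 equal parts of 34.8 kb there were 4, 6, 2, 2 and 1 Pol I peaks and 1, 5, 13, 12 and 5 Pol II peaks. The long Pol I spacing of 46.9 kb contained 14 Pol II peaks. Pol II spacing had a median of 1.71 kb, closer than that of Pol I in the same locus. The DMSO Pol II list skipped 11 numbers between its first and last peak here, 3 before the first and 7 after the last. The median score of these Pol II peaks was 76.52, and 3 stood far above it, 413.51 at chr9:134269175-134269874, 384.06 at chr9:134355139-134357239 (2101 bp, the widest) and 343.05 at chr9:134248514-134249341.

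Each of these 3 strongest Pol II peaks overlapped a Pol I peak. The Pol II peak with a score of 343.05 met a pair of Pol I peaks, by 177 bp (score 57.49) and by 401 bp (147.92). The peak with a score of 413.51 met a Pol I peak of score 179.11 by 454 bp, and the wide peak covered one of 161.45 entirely. Further overlaps were those of Pol I peaks scored 175.60 (covered entirely), 111.84 (by 426 bp) and 77.21 (by 32 bp). The centres of the Pol II peaks scored 343.05 and 413.51 were 20.6 kb apart on hg19, the longest Pol II spacing of the locus, and the 2 RefSeq starts shown above are 20.4 kb apart on GRCh38. No position was carried between the builds, so whether these peaks lie on those starts was not tested.

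**Figure D4:**
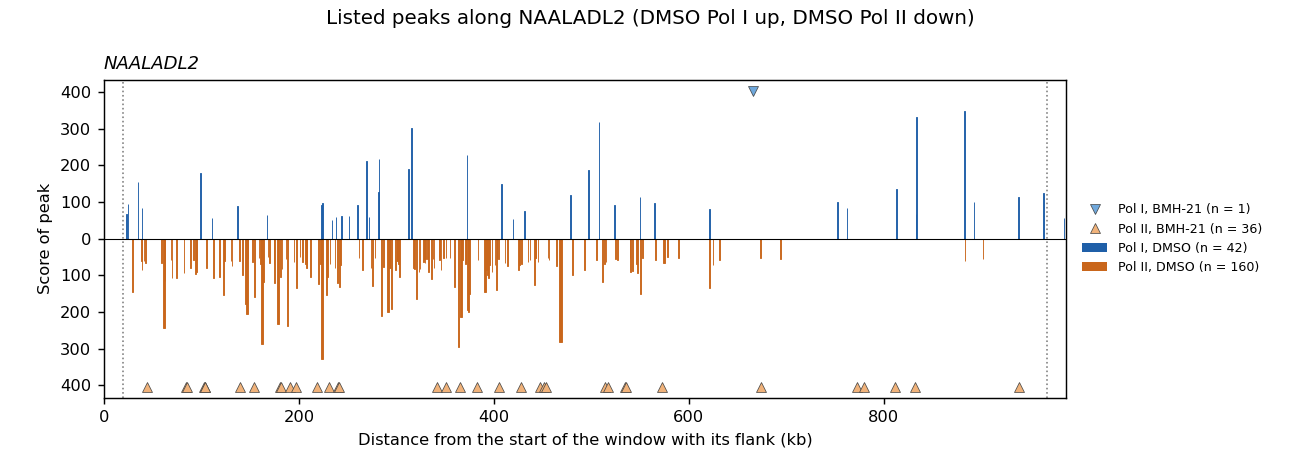
Listed peaks along NAALADL2, drawn as for the other loci over 987 kb, with outlines that make narrow peaks visible. Pol II peaks fill the first 3 of 5 equal parts of the window, whereas Pol I peaks go on to its end, where 2 of the 3 highest Pol I bars stand.

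NAALADL2, on chromosome 3, differed from the other loci in scale, with 42 DMSO Pol I peaks and 160 DMSO Pol II peaks over 987 kb. The Pol I scores ran from 50.21 to 346.99 with a median of 97.57, close to that of the whole list. The highest were 346.99 at chr3:175439804-175440605, 331.39 at chr3:175390532-175391195 and 317.90 at chr3:175064415-175065218, and the widest peak had 1163 bp at chr3:174655836-174656998 (score 178.17). Of 41 spacings 14 were under 10 kb and 6 were 50 kb or more. The closest peaks were 0.623 kb apart within chr3:175390033-175391195, and the longest spacing was 131 kb, from 175178436 to 175309082, in which 5 numbers were skipped.

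Pol II peaks of NAALADL2 had a median spacing of 2.35 kb and covered 12.6% of the window, against 2.47% under Pol I peaks. Their highest scores were 326.85 at chr3:174779560-174781548 and 294.76 at chr3:174919970-174921646, and the widest peak had 2398 bp at chr3:175024040-175026437. Its 5 equal parts of 197 kb held, in order, 45, 68, 40, 5 and 2 of the Pol II peaks but 8, 14, 9, 3 and 8 of the Pol I peaks. The last part, with 2 Pol II peaks, held the Pol I peaks with the first and second highest score. Of the 41 Pol I spacings in the window 27 contained at least 1 Pol II peak, and the fullest, 57.1 kb long, contained 27. The Pol II list skipped 100 numbers between its first and last peak here.

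The 7 Pol I peaks of NAALADL2 that were overlapped by Pol II had scores of 84.93, 91.26, 97.49, 228.13, 112.47, 81.76 and 346.99. Those scored 91.26 and 97.49 lay under 1 Pol II peak, the strongest of the locus. In 5 of the 7 the Pol II peak covered the Pol I peak entirely. The exceptions were the peak scored 346.99, which held a Pol II peak of 484 bp and score 60.24 within it, and the one scored 84.93, covered over 374 of its 406 bp.

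Across the 5 loci 16 of 104 DMSO Pol I peaks (15.4%, exact Clopper-Pearson 95% interval 9.06 to 23.8) were overlapped by a listed DMSO Pol II peak by 1 bp or more, against 14.0% of the whole list. Such intervals cover counting error over peaks only, and peaks of a locus are not independent replicates. The share was 46.7% in PRRC2B (7 of 15, interval 21.3 to 73.4), where 2 of the 7 peaks lay on 1 Pol II peak. DMSO Pol II peaks of PRRC2B were 25.8 times as dense as on its chromosome and those of NAALADL2 17.7 times, and the part of this density in the shares was not tested. It was 16.7% in NAALADL2 (7 of 42, interval 6.97 to 31.4), 6.67% in NFIX (1 of 15, interval 0.169 to 31.9) and 6.25% in STEAP2 (1 of 16, interval 0.158 to 30.2). In FOLH1 it was 0 of 16 (interval 0 to 20.6, where 3 peaks would make 18.8%). Counting Pol II peaks up to 1000 bp away as well gave 23 of 104 (22.1%, interval 14.6 to 31.3), against 18.1% of the whole list.

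In reverse, a Pol I peak lay on 14 of 204 DMSO Pol II peaks of the loci (6.86%, interval 3.8 to 11.2), against 20.5% of the whole Pol II list. NAALADL2 set this value, with 6 of 160 (3.75%, interval 1.39 to 7.98). In PRRC2B it was 6 of 36 (16.7%, interval 6.37 to 32.8). Listed DMSO Pol II peaks per DMSO Pol I peak numbered 3.81 in NAALADL2, 2.40 in PRRC2B and 1.96 over the loci, against 0.677 in the whole lists. The part of this ratio in the reverse shares was not tested. Within 1000 bp of a Pol I peak lay 17 of the 160 Pol II peaks of NAALADL2 (10.6%, interval 6.31 to 16.5), against 7655 of 28798 in the whole Pol II list. Within 10 kb lay 99 of the 160, against 16471 of 28798. The median free distance from a Pol II peak of NAALADL2 to the nearest Pol I peak was 7.51 kb, close to the 7.27 kb of the whole list.

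**Figure D5:**
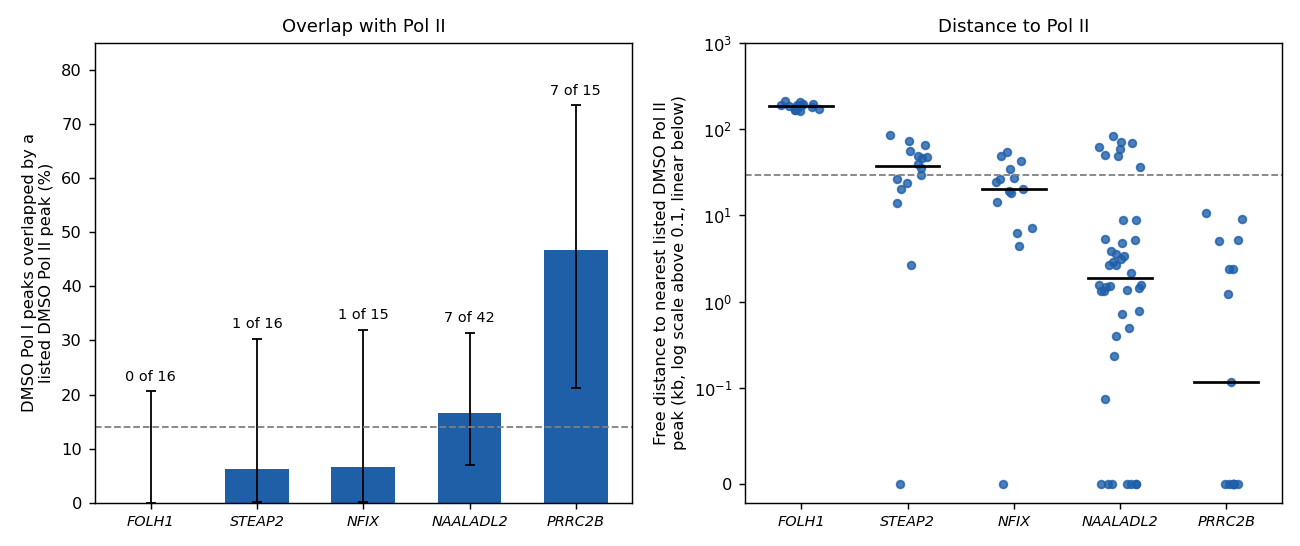
Left, percent of DMSO Pol I peaks overlapped by a listed DMSO Pol II peak in each locus, with exact 95% intervals, and the whole list (14.0%) as a dashed line. Right, free distance in kb from each DMSO Pol I peak to the nearest listed DMSO Pol II peak (points, logarithmic above 0.1 kb and linear below, 0 where they overlap), with medians as black bars and the whole-list median of 29.0 kb dashed. FOLH1 points lie between 160 and 208 kb, and the PRRC2B median is 0.117 kb.

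Distances to Pol II separated the loci further. The median free distance from a DMSO Pol I peak to the nearest listed DMSO Pol II peak was 183 kb in FOLH1 (160 to 208 kb), 36.9 kb in STEAP2, 20.1 kb in NFIX, 1.87 kb in NAALADL2 and 0.117 kb in PRRC2B, against 29.0 kb in the whole list. In FOLH1 0 of 16 Pol I peaks had a Pol II peak within 10 kb, in STEAP2 2 of 16 and in NFIX 4 of 15. In NAALADL2 34 of 42 did and in PRRC2B 14 of 15, against 34.1% of the whole list. Pol I peaks of the loci that overlapped Pol II had a median score of 112.16 (n = 16), and the others 94.66 (n = 88). These medians mix loci, so nothing is read from their difference. Within PRRC2B they were 147.92 (n = 7) and 141.43 (n = 8), and within NAALADL2 97.49 (n = 7) and 97.65 (n = 35). NFIX and STEAP2 had 1 overlapped peak each, 129.31 beside a median of 135.42 and 100.19 beside 70.60. The pooled ranges overlapped almost wholly, at 57.49 to 346.99 and 50.21 to 663.44. The highest-scored Pol I peak was overlapped by Pol II in NAALADL2, but not in FOLH1, STEAP2, NFIX or PRRC2B. FOLH1 had no listed Pol II peak to overlap, and STEAP2 and NFIX had them only in their flanks. In PRRC2B the highest-scored Pol I peak lay 0.117 kb from a listed Pol II peak.

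After BMH-21 the Pol I list had 9 peaks in the loci, 5 in NFIX, 2 in FOLH1, 1 in STEAP2, 1 in NAALADL2 and 0 in PRRC2B. They scored between 52.24 and 129.12 and were 160 to 365 bp wide, beside a median of 216 bp over the whole BMH-21 Pol I list. Because the 2 Pol I lists share no position, none could overlap a DMSO Pol I peak. Within 1000 bp of one lay 6 of the 9, beside 12.6% of the whole BMH-21 Pol I list. The loci were chosen for closely placed DMSO Pol I peaks, which raises this count by itself, so nothing is read from the difference. The BMH-21 Pol I list skipped 8 numbers before the FOLH1 peaks and 3 after them, 11 before and 8 after that of STEAP2, and 27 before and 21 after that of NAALADL2. In FOLH1 both fell between the DMSO peak ending at 49226214 and the strong peak at the upper end, 86 bp after the former (chr11:49226301-49226532, score 76.31) and 557 bp before the latter (chr11:49227457-49227667, score 53.33). The STEAP2 peak, at chr7:89873902-89874148 (56.39), lay 99 bp before a DMSO Pol I peak.

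NFIX had the most listed BMH-21 Pol I peaks, with 2 numbers skipped among them, 9 before and 6 after. Those at chr19:13128107-13128316 (58.73) and chr19:13136687-13136886 (52.24) lay 303 bp and 144 bp from DMSO Pol I peaks, among the crowd at the lower end. The peak at chr19:13184693-13184852 (64.00) stood alone in the long DMSO spacing, 16.2 kb from the nearest DMSO Pol I peak. Near the upper end of the gene, the peaks at chr19:13206762-13207126 (129.12, the highest of the 9) and chr19:13207991-13208184 (65.60) also fell in that spacing. In NAALADL2 the only peak, at chr3:175222314-175222516 (60.41), was 43.9 kb from a DMSO Pol I peak. In PRRC2B, with 0 listed peaks, the BMH-21 Pol I numbering skipped 0 numbers over the 331 kb around the window. No numbered Pol I peak was therefore left out there. DMSO gave 15, in a window chosen for them. On chromosome 9 the BMH-21 Pol I list had 0.0645 peaks per 100 kb and the DMSO Pol I list 1.29, so nothing particular to PRRC2B is read from the 0.

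BMH-21 Pol II peaks were listed in the loci that had many DMSO Pol II peaks, 36 in NAALADL2 and 12 in PRRC2B, besides the 2 in the flank of NFIX. In PRRC2B they scored from 50.49 to 77.74 (chr9:134334749-134334940) and were 192 to 314 bp wide, beside 268 to 2101 bp for DMSO Pol II. The median widths there, 266.5 bp (BMH-21) and 504 bp (DMSO), were close to the 269 and 498 bp of the whole Pol II lists. All 12 lay at or beyond chr9:134293796-134294109, in the last 3 of 5 equal parts of the window, beyond the 2 strong DMSO Pol II peaks at its lower end. Numbers were skipped here too, 4 over the 196 kb before the first of the 12, 9 among them and 11 after the last, so unlisted peaks could lie at the lower end. In NAALADL2 the highest scores were 142.53 at chr3:174775315-174776140 and 118.03 at chr3:175495698-175496353, and 134 numbers were skipped among the 36 listed peaks. The 2 Pol II lists share no position either, so none of the 50 BMH-21 Pol II peaks could overlap a listed DMSO Pol II peak. Within 1000 bp of one lay 25 of the 50 (50%, interval 35.5 to 64.5), against 19.2% of the whole BMH-21 Pol II list. The part of the high DMSO Pol II density of NAALADL2 and PRRC2B in this share was not tested either.

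Pol II peaks of the BMH-21 list lay on only 2 of the 104 DMSO Pol I peaks (1.92%, interval 0.234 to 6.77), against 2.43% of the whole list. They were the NAALADL2 peak at chr3:175495168-175495803 (by 106 bp) and the PRRC2B peak at chr9:134293711-134294122 (by 314 bp), the latter also touched by DMSO Pol II. The remaining loci had none.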

How the data were processed

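The submitters' processing notes name Bowtie2 2.2.1, deepTools 3.5.4 and CASAVA 1.8.2, with hg19 as the build. The authors deposited 1 peak list per ChIP library, with a score per peak in a column headed as a p-value per the file headers. Its values begin at 50 and its scale is not stated, so the score describes peaks within a list only. Peak names begin with MACS, and for the caller, its version, settings and use of input were not given in the sources used here.

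Starts were converted to the first base as a browser shows it. The 5 windows, with 20 kb on both sides, and the values reported were chosen with earlier results of these data known. A peak belonged to a window if it touched it. Spacing was taken between centres, and overlap meant 1 bp or more. Named peaks were, per locus and list, the highest-scored and widest, all Pol II peaks where at most 5 were listed, the closest and farthest consecutive Pol I peaks and Pol I peaks overlapping Pol II; others were named after their values were seen. Groups came from sample titles. With 1 library per group no test was run. Shares have exact Clopper-Pearson 95% intervals, and a share of 0 is given with the share 3 counts would make. The functions were tested on simulated data. Python 3.11.15, NumPy 2.4.6, pandas 2.3.3, SciPy 1.17.1 and matplotlib 3.10.9 were used. Alternatives were the flank, score, width, spacing and overlap rules. Sequences of peaks were not analysed here, as no genome of the build hg19 was used.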

Additional observations from a re-analysis of the deposited data

How the results depend on the processing

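Alternatives gave 133 values for 44 results. Of these, 109 were within 1.5 times the reported value or inside its interval and 24 were not. Dropping peaks scored below the median of their list left 52 DMSO Pol I and 89 DMSO Pol II peaks in the loci and lengthened the median Pol I spacing to 13.8 kb. This follows from having fewer peaks. It left 4 Pol I peaks in STEAP2 and 6 in FOLH1, with median spacings of 36.2 and 6.36 kb. Without flanks, STEAP2 and NFIX had 0 listed DMSO Pol II peaks. With flanks of 50 kb the loci held 113 DMSO Pol I peaks. The share of DMSO Pol I peaks overlapped by Pol II ran from 14.3% without flanks to 22.1% with a distance of up to 1000 bp. No paired analysis was possible because each group had 1 library. The gap of Pol II spacing and the spacings that skip no number were added after seeing the data. Depth could not be weighed, as the lists hold no read counts.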
